A study of Mus musculus with 18 samples.

Results

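The genes described here are 8 subunits of the transcription factor AP-1, chosen by symbol: the Fos group Fos, Fosb, Fosl1 and Fosl2, the Jun group Jun, Junb and Jund, and the related Atf3. Of these 8 genes, 7 had probes in the platform annotation (10 probes in all), and all 7 passed the detection filter and were among the 10902 genes tested. No probe carried the symbol Fosl1 in the annotation used here, so that gene was not analysed. The arrays are Illumina bead arrays of mouse RNA, read as a brightness per probe. The cells are primary fibroblasts that littermate male mouse embryos gave at day 13.5, of strain C57BL/6 per the labels. They were either wild type or knockout for Dusp5, the gene of a phosphatase that inactivates ERK in the nucleus. Each genotype was measured at 0 h, 1 h and 3 h of the phorbol ester TPA (12-O-tetradecanoylphorbol acetate in full, a protein kinase C activator), given at 100 ng/ml, with 3 arrays in each of 6 groups. No group received solvent alone, the design of the knockout allele and the number of embryos were not given in the sources used here, and nothing says that the arrays of a group came from separate cultures. The p-values therefore cover no more than the scatter among these arrays, part or all of which may be technical, and effects of handling or of time in culture cannot be told apart from those of TPA.

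AP-1 is a dimer of basic leucine zipper proteins. Fos proteins do not pair with themselves and bind DNA with a Jun partner, whereas Jun proteins can pair with each other, with Fos proteins or with ATF proteins such as Atf3. The dimer binds the TPA response element, which takes its name from the phorbol ester used here. Fos, Fosb, Jun and Junb are known as immediate early genes: their induction needs no new protein, and their messengers decay quickly. ERK drives the transcription of Fos through ternary complex factors bound beside SRF.

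The stretch of 150 bases directly before each RefSeq gene start (build GRCm38.p6) is shown. The windows cover the 6 genes that rose at 1 h and Jund, which did not. Whether transcription began at these annotated starts in these cells was not tested. All 7 measured subunits matched a RefSeq promoter. Capitals mark TGACG (the core of the cyclic AMP response element), TGACATCA (a variant of the TPA response element) or GCGGGGGCG (the site known for Egr proteins), read on either strand. The windows lie at chr12:85473740-85473889 on the plus strand for Fos, chr7:19310046-19310195 on the minus strand for Fosb, chr5:32136322-32136471 on the plus strand for Fosl2, chr4:95052223-95052372 on the minus strand for Jun, chr8:84978749-84978898 on the minus strand for Junb, chr8:70697589-70697738 on the plus strand for Jund and chr1:191183334-191183483 on the minus strand for Atf3.
Fos: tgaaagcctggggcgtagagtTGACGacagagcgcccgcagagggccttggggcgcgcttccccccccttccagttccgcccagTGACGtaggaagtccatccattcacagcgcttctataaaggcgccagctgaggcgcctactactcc
Fosb: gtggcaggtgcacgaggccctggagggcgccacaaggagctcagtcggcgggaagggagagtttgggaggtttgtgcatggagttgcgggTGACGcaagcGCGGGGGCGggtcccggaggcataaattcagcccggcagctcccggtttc
Fosl2: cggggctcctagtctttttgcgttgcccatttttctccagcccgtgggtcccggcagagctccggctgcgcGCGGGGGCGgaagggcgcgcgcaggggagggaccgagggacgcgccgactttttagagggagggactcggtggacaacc
Jun: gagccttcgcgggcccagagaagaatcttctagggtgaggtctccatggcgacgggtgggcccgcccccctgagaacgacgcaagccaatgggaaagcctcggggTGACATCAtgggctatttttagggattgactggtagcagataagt
Junb: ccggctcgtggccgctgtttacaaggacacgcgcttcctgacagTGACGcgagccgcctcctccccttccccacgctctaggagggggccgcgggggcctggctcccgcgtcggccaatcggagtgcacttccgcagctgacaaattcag
Jund: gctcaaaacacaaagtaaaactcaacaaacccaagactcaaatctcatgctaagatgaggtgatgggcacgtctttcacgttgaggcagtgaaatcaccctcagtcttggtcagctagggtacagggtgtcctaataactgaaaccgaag
Atf3: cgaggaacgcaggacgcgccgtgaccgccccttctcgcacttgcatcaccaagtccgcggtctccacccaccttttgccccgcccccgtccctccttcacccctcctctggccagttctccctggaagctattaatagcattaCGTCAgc

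TGACG was found in 4 of the 7 windows (Fos, Fosb, Junb and Atf3, the last on the reverse strand) and in 13.3% of all 32851 RefSeq windows of this length. In Fos it lay at 2 positions, starting at −129 and −66 from the gene start. GCGGGGGCG was found in Fosb and Fosl2, and in 2.09% of all windows. TGACATCA was found in Jun, starting at −45, and in 2.32% of all windows. The consensus TPA response element TGACTCA, held by 2.84% of all windows, and the full cyclic AMP response element TGACGTCA, held by 1.36%, had no match in these 7 windows. TGACG lies inside TGACGTCA, so those searches overlap. A match describes these letters only.

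The arrays detected between 16675 and 18348 of 45281 probes, and 20239 probes passed the filter. Of 11 fibroblast markers with a probe, 9 were detected on all 18 arrays, among them Col1a1, Vim and Thy1. Pan-leukocyte Ptprc was detected on no array, but the macrophage receptor genes Adgre1 and Csf1r and the monocyte gene Cd14 were detected on all 18. Of the other markers, 0 of 4 endothelial, 1 of 6 epithelial (Krt18), 1 of 3 skeletal muscle (Des, with Myod1 on no array) and 0 of 3 neural ones were detected on all arrays. In RNA of a whole culture fewer cells of a type and less RNA per cell cannot be told apart. Marker sums given below add linear signal with its background, so the brightest gene of a set weighs most. In log2, Des averaged 7.78 against 4.65 for Myog and 4.31 for Myod1. Cd14 averaged 6.32, with Csf1r next in its set at 5.36, and Krt18 6.07, with Cdh1 next at 4.75. A change in a sum can thus be that of 1 gene and does not measure cells. The Dusp5 probe fell by 0.89 (log2, limma adjusted p = 6.72e-06) in knockout cells at 0 h and stayed lower at 1 h (−0.97) and 3 h (−0.65). It was nevertheless detected on all 9 knockout arrays and rose there with TPA by 1.87 at 1 h, against 1.95 in wild type, so it checks the labels only in part.

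Fos, the prototype subunit, peaked at 1 h in both genotypes and was below its untreated level at 3 h in wild-type cells. On the normalized log2 scale used throughout, its 3 wild-type arrays read 6.27, 6.62 and 6.69 at 0 h, 7.36, 7.60 and 8.01 at 1 h, and 5.72, 5.49 and 5.39 at 3 h. The 3 knockout arrays read 6.15, 6.28 and 6.54 at 0 h, 8.61, 8.24 and 8.05 at 1 h, and 6.83, 6.74 and 6.88 at 3 h. The genotypes overlapped before treatment only, and all 3 knockout arrays at 3 h lay above all 6 untreated arrays. The raw brightness of this probe ran from 123 to 429, and the probe was detected on all 18 arrays.

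Fosb, a strongly inducible Fos relative, followed the same course but stayed above its base. Its wild-type arrays read 4.88, 5.06 and 4.91 at 0 h, 7.81, 7.41 and 7.82 at 1 h, and 5.90, 5.65 and 5.65 at 3 h. The knockout arrays read 4.89, 5.02 and 4.99 at 0 h, 8.46, 8.27 and 8.31 at 1 h, and 6.66, 7.02 and 6.84 at 3 h. The groups separated completely in the order knockout 1 h, wild type 1 h, knockout 3 h, wild type 3 h, with the untreated groups last and overlapping.

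Fosl2, which encodes Fra-2, moved least of the Fos genes at 1 h and then dropped. Its wild-type arrays read 9.64, 9.69 and 9.52 at 0 h, 10.20, 9.90 and 10.12 at 1 h, and 8.68, 8.59 and 8.62 at 3 h. The knockout arrays read 9.77, 9.35 and 9.46 at 0 h, 10.08, 10.13 and 10.12 at 1 h, and 8.94, 9.32 and 9.21 at 3 h. The genotypes overlapped at 0 h and 1 h, and the 3 h groups were the lowest, with every knockout array above every wild-type array. A second Fosl2 probe that passed the filter was detected on 4 of 18 arrays and met the threshold in none of the 12 comparisons, and another was detected on 1 array and left out.

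Jun, the founding member of its group and a partner for each Fos protein, rose at 1 h and was closer to base at 3 h. Its wild-type arrays read 7.96, 7.84 and 7.62 at 0 h, 8.65, 8.84 and 8.25 at 1 h, and 8.25, 8.19 and 8.25 at 3 h. The knockout arrays read 7.97, 7.92 and 8.01 at 0 h, 9.01, 8.96 and 9.03 at 1 h, and 8.25, 8.13 and 8.05 at 3 h. The knockout stood above the wild type at 1 h, where the wild-type arrays were widely spread, and the genotypes overlapped at 0 h and 3 h.

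Junb, which can antagonize Jun, gave the largest change in the Jun group. Its wild-type arrays read 8.10, 7.90 and 7.92 at 0 h, 10.69, 10.68 and 10.46 at 1 h, and 8.91, 8.93 and 9.06 at 3 h. The knockout arrays read 8.12, 8.38 and 8.37 at 0 h, 10.99, 11.20 and 11.05 at 1 h, and 10.13, 9.70 and 9.74 at 3 h. No 2 neighbouring groups overlapped in the order knockout 1 h, wild type 1 h, knockout 3 h, wild type 3 h, knockout 0 h, wild type 0 h. A second Junb probe was detected on no array. Jund, commonly described as the steadily expressed Jun gene, stayed between 5.42 and 6.19 on all 18 arrays, and each of its 6 groups overlapped the next in order. Its 3 knockout arrays at 3 h still lay below the knockout arrays at 0 h (−0.30) and at 1 h (−0.30). The unadjusted limma p was 0.0339 and 0.0302, and neither change was called (adjusted p = 0.134 and 0.147).

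Atf3, a stress-inducible partner of Jun proteins, was dim outside the 1 h groups. Its wild-type arrays read 4.46, 4.40 and 5.04 at 0 h, 6.11, 5.94 and 6.35 at 1 h, and 4.33, 4.53 and 4.71 at 3 h. The knockout arrays read 4.44, 4.84 and 4.47 at 0 h, 6.75, 7.06 and 6.83 at 1 h, and 4.93, 4.997 and 5.17 at 3 h. The probe was detected on 1 of 3 arrays in both untreated groups and in wild type at 3 h, and on all 3 arrays of the other groups. All 3 knockout arrays stood above the wild type at 1 h and at 3 h.

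**Figure D1:**
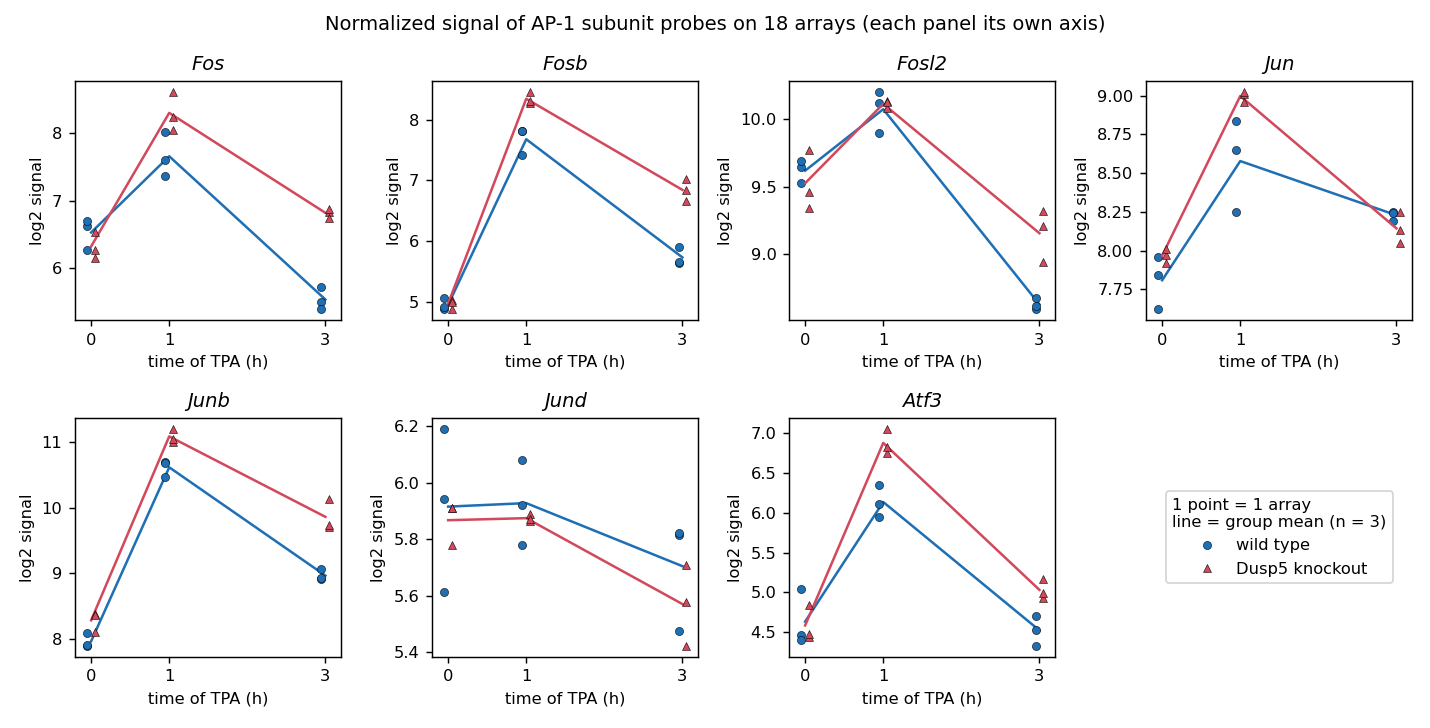
Normalized log2 signal (y axis, a separate scale per gene) of the 7 measured AP-1 subunits against hours of TPA (x axis). Each point is 1 array, circles are wild type and triangles Dusp5 knockout, and lines join the means of 3 arrays. The peak at 1 h in every gene but Jund, and the higher knockout arrays at 3 h for Fos, Fosb, Fosl2, Junb and Atf3, can be read from it.

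At 1 h TPA raised 6 of the 7 measured subunits in each genotype, Jund being the exception, while 1.88% of all tested genes rose in wild-type and 2.56% in knockout cells. In wild-type cells Fosb rose 6.64-fold (2.73 ± 0.12 log2, standard error of limma, adjusted p = 1.48e-12) and Junb 6.22-fold (2.64 ± 0.12, adjusted p = 1.70e-12), the 6th and 7th largest changes of all genes tested. Atf3 rose by 1.504 ± 0.16 (adjusted p = 1.55e-06), Fos by 1.13 ± 0.16 (adjusted p = 0.000104), Jun by 0.77 ± 0.12 (adjusted p = 0.000297) and Fosl2 by 0.45 ± 0.12 (adjusted p = 0.0298). In knockout cells the rises were 3.38 ± 0.12 for Fosb, 2.79 ± 0.12 for Junb, 2.29 ± 0.16 for Atf3, 1.98 ± 0.16 for Fos, 1.03 ± 0.12 for Jun and 0.59 ± 0.12 for Fosl2, with limma adjusted p from 4.27e-14 to 0.00263. Jund changed by 0.01 in each genotype, with 95% intervals from −0.26 to 0.28 in either. The median of the 7 subunits was 1.13 in wild type and 1.98 in knockout, against −0.01 and −0.02 over all genes. The wild-type rise of Fosl2 missed the threshold without any 1 of wild-type arrays 1, 2 or 3 at 0 h or 1 or 3 at 1 h (limma adjusted p up to 0.170). It also missed it in 3 of 12 other settings (log2 change down to 0.19, limma adjusted p up to 0.4). The knockout rise of Fosl2 missed it in 2 of 12. Without background correction the rises in wild type and knockout were smaller but still called, at 0.46 and 0.82 for Atf3, whose untreated groups were mostly undetected, 1.21 and 1.69 for Fosb and 0.65 and 1.20 for Fos. Macrophage and blood markers summed to 169 to 183 at 0 h and 197 to 207 at 1 h in knockout arrays and overlapped in wild type, and their part was not tested.

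From 1 h to 3 h the subunits came down. In wild-type cells 5 of 7 fell, while 4.80% of all genes did. Fos changed most (−2.12 ± 0.16, 4.36-fold lower, limma adjusted p = 1.39e-08), followed by Fosb (−1.95 ± 0.12), Junb (−1.64 ± 0.12), Atf3 (−1.61 ± 0.16) and Fosl2 (−1.44 ± 0.12), with limma adjusted p of 4.81e-07 or less. Jun gave −0.35 ± 0.12 (limma adjusted p = 0.0713) and was called without wild-type 1 h array 3, its lowest 1 h array (−0.52, adjusted p = 0.00396) and in 6 of 12 other settings (limma adjusted p down to 0.0188). Without background correction the wild-type falls were −1.04 for Fos, −0.99 for Fosb and −0.49 for Atf3, and with the mean of its kept probes that of Fosl2 was −0.72, all still called. In knockout cells 6 of 7 fell, while 6.45% of all genes did. The changes were −1.85 for Atf3, −1.504 for Fosb, −1.48 for Fos, −1.22 for Junb, −0.96 for Fosl2 and −0.85 for Jun, with limma adjusted p of 2.80e-05 or less. In the 12 other settings the smallest knockout falls were −0.71 for Atf3, −0.98 for Fosb, −0.96 for Fos, −1.12 for Junb, −0.41 for Fosl2 and −0.67 for Jun. All were still called. The difference between the genotypes in this change was tested and not called for any of the 7 subunits, and was called for 0.183% of all genes. Unadjusted limma p-values were under 0.05 for Jun, which fell more in the knockout, and for Fos, Fosb, Fosl2 and Junb, which fell less. The share of all genes under that unadjusted cut was not computed, so these p-values give no result about the family. The difference was 0.64 for Fos (95% interval 0.16 to 1.12, limma adjusted p = 0.476), 0.45 for Fosb (0.09 to 0.80, adjusted p = 0.531) and −0.50 for Jun (−0.86 to −0.15, adjusted p = 0.437). Over the 12 other settings it ran from 0.08 to 0.86 for Fos, from 0.01 to 0.68 for Fosb and from −0.53 to −0.24 for Jun.

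By 3 h the subunits had parted into genes above, near and below their untreated level. In wild-type cells Junb was still up by 1.00 ± 0.12 (limma adjusted p = 2.36e-06), Fosb by 0.78 ± 0.12 (adjusted p = 6.82e-05) and Jun by 0.42 ± 0.12 (adjusted p = 0.0198). Fos had fallen (−0.99 ± 0.16, 1.99-fold lower, limma adjusted p = 0.000152), as had Fosl2 (−0.99 ± 0.12, 1.98-fold lower, adjusted p = 2.36e-06), and Atf3 stood at −0.11 (adjusted p = 0.707). Of all genes 7.81% were higher and 8.19% lower. In knockout cells Fosb was up by 1.88 ± 0.12 (limma adjusted p = 1.83e-10), Junb by 1.57 ± 0.12 (adjusted p = 2.19e-09) and Fos by 0.50 ± 0.16 (adjusted p = 0.0364), and Fosl2 was down (−0.37 ± 0.12, adjusted p = 0.0299), while 8.25% of all genes were higher and 10.1% lower. Atf3 (0.45, limma adjusted p = 0.0574), Jun (0.18, adjusted p = 0.379) and Jund (−0.30, adjusted p = 0.134) were not called there. Nor was Jund in wild type (−0.21, limma adjusted p = 0.314). The median of the 7 subunits was −0.11 in wild type and 0.45 in knockout, with 0.01 and −0.02 over all genes.

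Some of these 3 h calls depended on a few arrays. The knockout count of 4 fell to 2, Fosb and Junb, without untreated array 1 or without 3 h array 1 or 3. Without untreated array 2 or 3 h array 2, Fos alone of the 4 was lost. Its limma adjusted p reached 0.151 with 1 array left out. The knockout rise of Fos was lost in 4 of 12 other settings (limma adjusted p up to 0.227), with a log2 change of 0.24 without background correction. The knockout fall of Fosl2 was lost in 3 of 12 (−0.085 with the mean of its kept probes, limma adjusted p = 0.649). Without background correction Fosb gave 0.23 in wild type and 0.71 in knockout and Fos −0.39 in wild type, all still called. The wild-type rise of Jun was lost without untreated array 3 or 3 h arrays 1 or 3 (adjusted p up to 0.123). It turned to −0.02 with median scaling over all probes, a setting that moved the median of all genes by −0.31, so that Jun lay 0.29 above that median. With that scaling Jund was called lower in wild type (−0.55, limma adjusted p = 0.00498), at −0.24 relative to the same median. Macrophage and blood markers summed to 175 to 196 untreated and 201 to 234 at 3 h in wild type, and to 169 to 183 and 202 to 212 in knockout. Epithelial markers summed to 161 to 192 and 207 to 217 in wild type, and to 153 to 163 and 190 to 201 in knockout, and the part of either set in the 3 h changes was not tested.

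**Figure D2:**
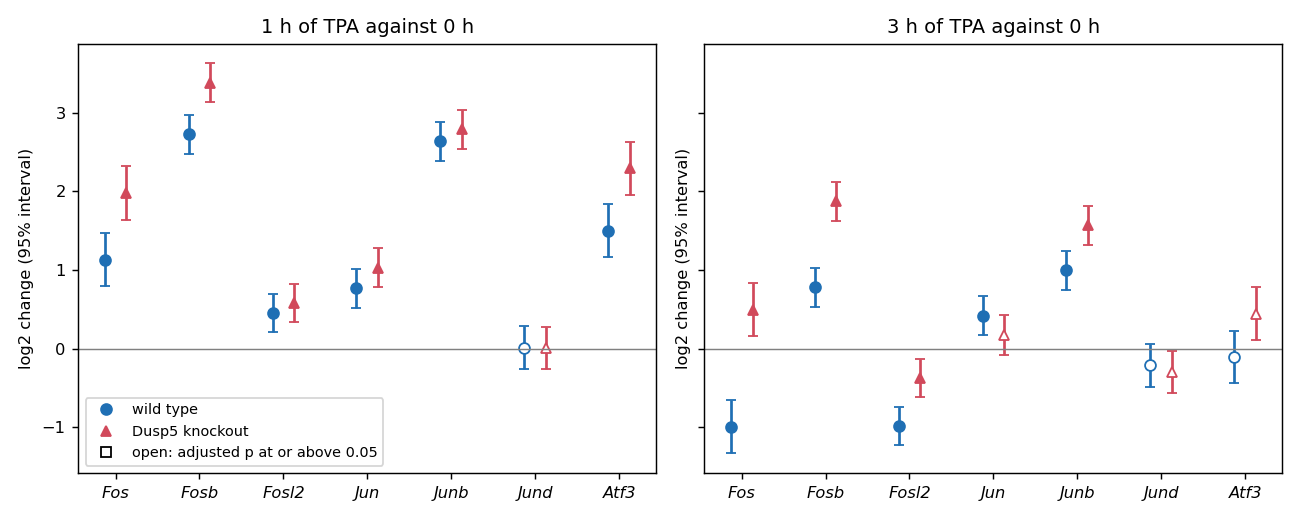
Log2 change of each subunit (y axis) at 1 h (left) and 3 h (right) of TPA against 0 h, with 95% intervals from the limma fit over 18 arrays (3 per group). Circles are wild type, triangles knockout, and open symbols missed the adjusted p threshold of 0.05. At 3 h Fos lies at −0.99 in wild type and 0.50 in knockout.

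Before TPA none of the 7 subunits was called between the genotypes, while 1.85% of all genes were. Junb, the only subunit with an unadjusted p under 0.05, read 0.32 higher in the knockout (95% interval 0.07 to 0.56, limma adjusted p = 0.185), and was the only 1 of the 7 whose arrays did not overlap, as for 20.4% of all genes. The intervals of the others spanned 0, as for Fosb (0.02, −0.23 to 0.27) and Fos (−0.21, −0.54 to 0.13). No alternative setting called any of the 7 at this time. The summed signal of 4 endothelial markers ran from 84.1 to 93.0 over wild-type arrays and from 96.1 to 101 over knockout arrays, and that of 3 skeletal muscle markers from 296 to 303 and from 223 to 244. The endothelial markers averaged 4.37 to 4.75 (log2), close to the 4.32 of Ptprc, which was detected on no array. Pecam1 and Cdh5 were each detected on 1 of 18 arrays. That sum therefore lies near background, and the muscle sum came mostly from Des. The part of these markers was not tested.

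At 1 h of TPA, 4 of 7 subunits were higher in knockout than in wild-type cells and none was lower, while 1.09% of all genes were higher. They were Atf3 (0.74 ± 0.16 log2, 1.67-fold, limma adjusted p = 0.0143), Fosb (0.67 ± 0.12, 1.59-fold, adjusted p = 0.00299), Fos (0.64 ± 0.16, 1.56-fold, adjusted p = 0.0401) and Junb (0.47 ± 0.12, 1.38-fold, adjusted p = 0.0379). The arrays of these 4 genes and of Jun did not overlap between the genotypes, which held for 17.6% of all genes. Jun (0.42, limma adjusted p = 0.0765), Fosl2 (0.04, 95% interval −0.20 to 0.28) and Jund (−0.05, −0.32 to 0.22) were not called. The count was fragile: without wild-type 1 h array 1 or knockout 1 h array 2 it was 1 (Fosb), and it was 2 without wild-type array 2 (Fosb and Jun) or knockout array 1 (Fosb and Atf3). Junb, which already read 0.32 higher at 0 h, was not called without any 1 of the 6 arrays at 1 h (limma adjusted p up to 0.158). With median scaling over all probes none was called, but that setting moved the median of all genes by −0.22, relative to which Fosb lay at 0.59 and Atf3 at 0.69, while 4 other settings also called Jun. Macrophage and blood markers (5) summed to between 182 and 196 in wild type and between 197 and 207 in knockout at this time, and skeletal muscle markers to 268 to 318 and 226 to 253. The muscle sum came mostly from Des, and the part of these markers in the genotype differences was not tested.

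At 3 h again 4 of 7 were higher in the knockout and none was lower, while 2.44% of all genes were higher, with Fosl2 among them and Atf3 not called. Atf3 and these 4 genes had arrays that did not overlap between the genotypes, as had 22% of all genes. Fos was higher by 1.29 ± 0.16 (2.44-fold, 95% interval 0.95 to 1.62, limma adjusted p = 4.30e-05), Fosb by 1.11 ± 0.12 (2.16-fold, adjusted p = 4.88e-06), Junb by 0.89 ± 0.12 (1.85-fold, adjusted p = 6.72e-05) and Fosl2 by 0.53 ± 0.12 (1.44-fold, adjusted p = 0.00894). Fos had the 15th and Fosb the 19th largest genotype difference of all genes at this time. Atf3 stood at 0.51 (limma adjusted p = 0.0752), Jun at −0.08 (95% interval −0.33 to 0.17) and Jund at −0.13 (−0.41 to 0.14). The median of the 7 subunits was 0.53, against −0.01 over all genes. Without background correction the differences were 0.54 for Fos and 0.49 for Fosb, both still called. Fosl2 missed the threshold without knockout 3 h array 2 (adjusted p = 0.0543) and with median scaling over all probes. The skeletal muscle markers summed to between 279 and 307 in wild type and between 231 and 270 in knockout at 3 h, and the 6 epithelial markers to 207 to 217 and 190 to 201, while the macrophage and blood markers overlapped (201 to 234 and 202 to 212).

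**Figure D3:**
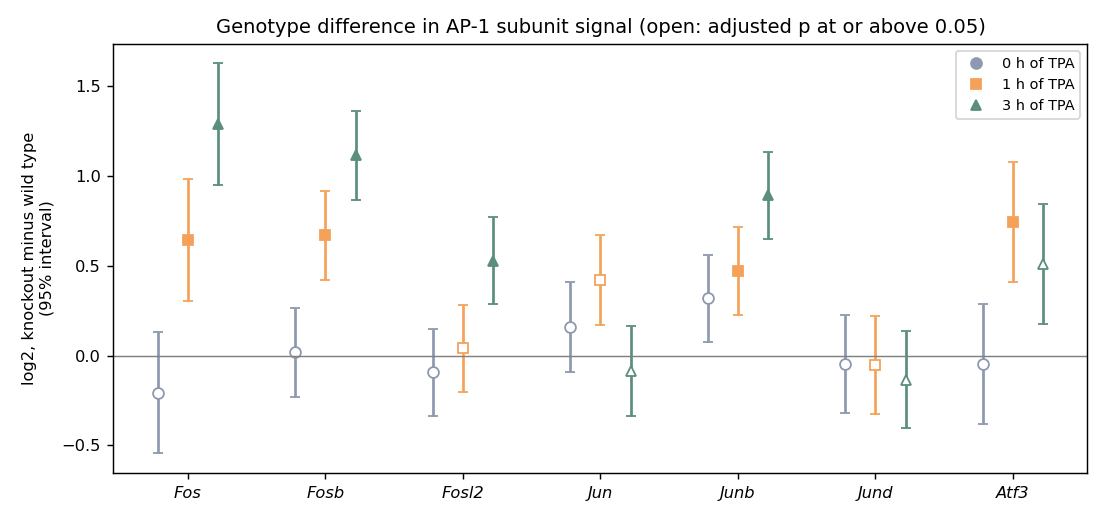
Knockout minus wild-type log2 signal (y axis) of each subunit at 0 h (circles), 1 h (squares) and 3 h (triangles) of TPA, with 95% intervals from the limma fit (3 arrays per group). Open symbols missed the adjusted p threshold of 0.05. No symbol is filled at 0 h, and the highest at 3 h are Fos at 1.29 and Fosb at 1.11.

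The difference of the TPA responses themselves was called for 2 of the 7 subunits at 3 h and for none at 1 h. At 3 h the knockout response exceeded that of the wild type by 1.49 ± 0.23 for Fos (95% interval 1.01 to 1.97, limma adjusted p = 0.0025) and by 1.095 ± 0.17 for Fosb (0.74 to 1.45, adjusted p = 0.0025), while 0.275% of all genes had a called difference in this direction. They ranked 6th and 12th by size over all genes. Fosl2 (0.62, limma adjusted p = 0.149), Junb (0.57, adjusted p = 0.188) and Atf3 (0.56, adjusted p = 0.416) were not called, and Jun was at −0.24 (−0.60 to 0.11). At 1 h the difference was 0.85 for Fos (95% interval 0.37 to 1.33, limma adjusted p = 0.464), 0.79 for Atf3 (0.32 to 1.26, adjusted p = 0.479) and 0.65 for Fosb (0.30 to 1.00, adjusted p = 0.412). These 3 had unadjusted p of 0.00141, 0.00224 and 0.000982, and 3 genes of 10902 (0.0275%) were called. Junb, called between the genotypes at 1 h, differed in its 1 h response by only 0.15 (95% interval −0.19 to 0.50, limma adjusted p = 0.942). Both 3 h calls held with any 1 array left out, at 1.41 or more for Fos. Without background correction the 3 h difference was 0.63 for Fos (adjusted p = 0.0551) and 0.48 for Fosb (adjusted p = 0.0187). Fosl2 was called as well with a variance trend or with array weights, and Junb with median scaling over all probes (0.89, limma adjusted p = 0.025), which moved the median of all genes by 0.19.

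The subunits fell into different patterns over the 6 groups. Likeness was measured as the root mean square difference of 6 group means (log2), each gene centred on its own mean, so that a lower value is more alike. Among the subunits, Fosb differed least from Junb (0.19) and Fos least from Atf3 (0.29), whereas Fos and Junb differed by 0.68. Outside the family, Fos was most like Csrnp1 (0.24), Zfp36 (0.29), whose product speeds the decay of AU-rich messengers, and the zinc-finger factor Egr1 (0.33). Atf3 was most like Zfp36 (0.11), the clock gene Per1 (0.30) and Egr1 (0.31). Junb was closest to the clock repressor Bhlhe40 (0.29), the cytokine Csf2 (0.32) and the NF-kB inhibitor gene Nfkbia (0.39), and Fosb to Csf2 (0.43), Bhlhe40 (0.46) and the chemokine Cxcl1 (0.51). Fosl2 was closest to Adamts6 (0.18), the kinase gene Pim3 (0.20) and Tsc22d2 (0.21). Jun was most like the chemokine Cxcl2 (0.10), Rgs1 (0.12) and the cyclin L gene Ccnl1 (0.12), and Jund was most like Tnfaip1, Midn and Rrm1, at 0.02 each. Each gene stands here for its brightest kept probe, and patterns of other probes were not compared. Genes with further kept probes include Adamts6, Ccnl1 and Cxcl2. In wild type at 1 h those probes changed by −0.04 and −0.02 for Adamts6, 0.27 and 0.23 for Ccnl1 and 0.41 for Cxcl2, none called. The measure of likeness is not scaled to the size of a pattern. The root mean square of the pattern itself was 0.13 for Jund and 1.31 for Fosb. Values of different subunits therefore cannot be ranked against each other, and any flat gene lies close to Jund. Csf2, Cxcl2 and Rgs1 were detected on no untreated array, Cxcl2 also on none at 3 h and Rgs1 on 1 of 6 at 3 h, so their values in those groups are at the background level.

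**Figure D4:**
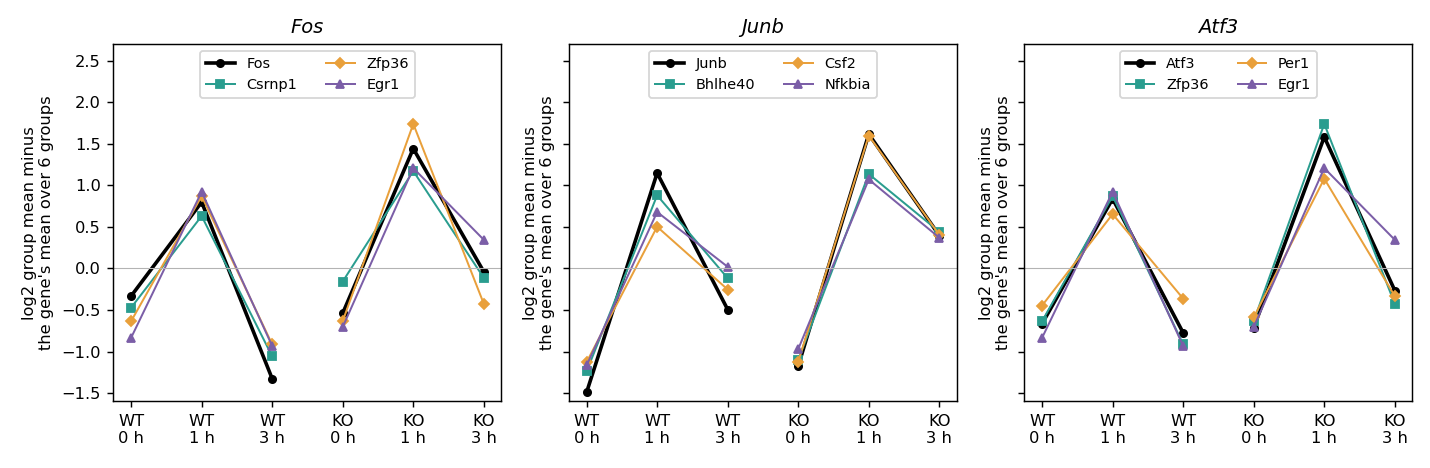
Group means of Fos, Junb and Atf3 (thick black) with the 3 genes closest to each (thin lines), in log2 after subtracting each gene's mean over the 6 groups (y axis). Groups are wild type (WT) and knockout (KO) at 0 h, 1 h and 3 h (x axis), each the mean of 3 arrays. Zfp36 lies 0.11 from Atf3 in root mean square terms.

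Of 22 other AP-1 and related leucine zipper genes listed, 15 were tested. In wild-type cells 3 rose at 1 h, namely Cebpb (1.27 ± 0.09, limma adjusted p = 5.16e-09), the stress factor Ddit3 (1.22 ± 0.16) and Nfe2l2 (0.79 ± 0.10), the gene of the antioxidant regulator NRF2. The same 3 and Crem rose in knockout cells, and the shares of all genes that rose were 1.88% and 2.56%. At 3 h, 5 were higher and 1 lower in wild type, the lower being the AP-1 repressor Jdp2, named for its direction after its value was seen (−0.38 ± 0.12, limma adjusted p = 0.0304), and 5 were higher in knockout cells. Of all genes 7.81% were higher and 8.19% lower in wild type and 8.25% were higher in knockout, so the single lower gene of 15 is near the share over all genes. The 3 other kept probes of Crem missed the threshold in these comparisons. None of the 15 was called between the genotypes at 1 h or 3 h, and at 0 h only Ddit3 was (0.65, limma adjusted p = 0.0418). The list medians at 3 h were 0.11 in wild type and 0.27 in knockout.

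Among 16 tested kinases and factors that act on Fos and Jun (of 21 listed), none was called at 1 h in either genotype. At 3 h Srf, the serum response factor bound at the Fos promoter, had fallen by 1.11 ± 0.11 in wild type (limma adjusted p = 1.52e-07) and by 1.13 ± 0.11 in knockout cells (adjusted p = 8.70e-08). Its other kept probe fell by 0.65 in wild type and gave −0.37 (limma adjusted p = 0.0627) in the knockout. Prkcd, a protein kinase C isoform that phorbol esters bind, rose by 0.56 and 0.35. In all, 2 of 16 rose and 3 fell at 3 h in each genotype, against higher and lower shares over all genes of 7.81% and 8.19% in wild type and 8.25% and 10.1% in knockout. Prkcd alone was called between untreated genotypes (0.38, limma adjusted p = 0.0410), and none of the 16 was called at 1 h or 3 h.

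Of 28 genes listed as known AP-1 targets, 24 were tested. Of these, 12 rose at 1 h and 17 at 3 h in wild type, 16 rose at each time in knockout cells, and none was called lower than untreated. Of all genes 1.88% and 7.81% rose in wild type and 2.56% and 8.25% in knockout, and the list was chosen with earlier results of these data known. The median of the list was 0.42 at 1 h and 0.80 at 3 h in wild type and 0.78 and 1.01 in knockout, with medians over all genes between −0.02 and 0.01. From 1 h to 3 h, 10 rose in wild-type cells (5.43% of all genes), among them the collagenase gene Mmp13 (1.39 ± 0.18) and the stromelysin gene Mmp10 (1.30 ± 0.10), the interval in which 5 of the 7 subunits fell. The other kept probes of Mmp13 gave 0.66 and 0.01, the latter not called. In knockout cells 11 rose over this interval (7.48% of all genes) and the cytokine gene Il6 fell (−0.83), named likewise as the sole gene of its direction. Il6 was detected on 3 of 3 knockout arrays at 1 h but on 1 of 3 at 3 h, so background limits the size of its fall.

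Between the genotypes at 3 h, 10 of the 24 targets were higher in the knockout and none lower, while 2.44% of all genes were higher. They included Il11 (1.07 ± 0.11, limma adjusted p = 2.47e-06), the gelatinase gene Mmp9 (1.05 ± 0.11), Lif (0.85 ± 0.13) and Serpinb2 (2.17 ± 0.12). At 0 h, 4 were already higher, among them Serpinb2 and Mmp9 by 1.24 and 0.87, while 0.963% of all genes were higher, and at 1 h 6 were, against 1.09%. The difference of the 3 h responses was called for 3 of 24, all higher in the knockout (0.275% of all genes): Serpinb2 (0.93 ± 0.17, limma adjusted p = 0.0134), Il11 (0.88 ± 0.15, adjusted p = 0.00768) and the urokinase gene Plau (0.70 ± 0.15, adjusted p = 0.0406). At 1 h it was called for none of them.

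**Figure D5:**
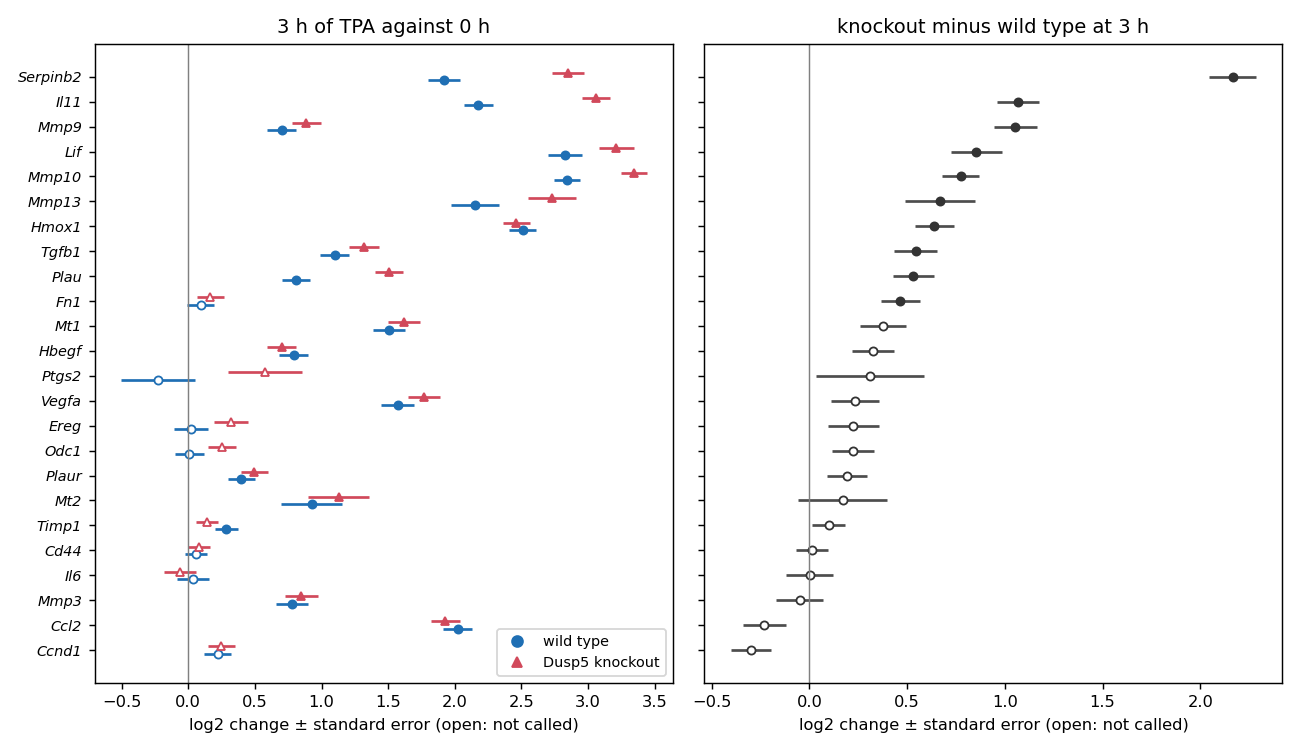
Genes known as AP-1 targets (24 tested, y axis): log2 change at 3 h of TPA against 0 h in wild type (circles) and knockout (triangles) on the left, and knockout minus wild type at 3 h on the right (x axes). Bars are standard errors of the limma fit with 3 arrays per group, and open symbols were not called. Serpinb2 has the largest genotype difference among them, 2.17.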

How the data were processed

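The authors deposited an intensity and a detection p-value per probe and array, not normalized per the file headers, with array columns named by sample title. Their series matrix holds log2 values whose distribution is the same on every array, as deposited by the authors, and served as an alternative. RNA was amplified and biotin-labelled per the labels' protocols. The sources used here do not name the software that made the intensities.

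The neqc function of limma 3.58.1 (R 4.3.3) took the intensities through normexp background correction, estimated from detection p-values, then an offset of 16, quantile normalization and log2. Probes with detection p below 0.05 on at least 3 of 18 arrays were kept. Of 45281 probes, 34885 had 1 gene symbol, 18 had several and the rest were unnamed here. Each gene was its brightest kept probe with 1 symbol. Group means were fitted with limma over all 18 arrays (12 residual degrees of freedom), with 12 contrasts, and a gene was called at a Benjamini-Hochberg adjusted p below 0.05 over 10902 genes. The number of arrays limits the precision.

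The members and gene lists were chosen with earlier results of these data known. All members were named, with up to 4 called genes of each list per comparison with the largest changes and the 3 genes closest in pattern to each member, passing over clones and predicted genes. The fit was tested on simulated data. Alternatives were other normalizations, filters, probe choices, variance models, array weights, array sets, a replicate block and leaving out each array. A slide block was not run, since no slide information was used here.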

Additional observations from a re-analysis of the deposited data

Results flagged for a closer look

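The TPA response at 3 h differed between knockout and wild-type cells by limma's test of the difference for Fos (1.49, adjusted p = 0.0025) and Fosb (1.095, adjusted p = 0.0025), higher in the knockout. Among the listed AP-1 targets it differed in the same direction for Serpinb2 (0.93, limma adjusted p = 0.0134), Il11 (0.88, adjusted p = 0.00768) and Plau (0.70, adjusted p = 0.0406). The change from 1 h to 3 h differed for Serpinb2 (0.92, limma adjusted p = 0.0274) and Il11 (0.78, adjusted p = 0.0361). Each value is a log2 difference, knockout minus wild type, over 3 arrays in each of 4 groups.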

How the results depend on the processing

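Over 84 values (7 subunits in 12 comparisons) and 12 other settings, 963 of 1008 kept their side of the threshold, 23 lost the call, 21 gained it and 1 reversed, namely Jun in wild type at 3 h, which was −0.016 with median scaling over all probes. With 1 array left out, 1476 of 1512 kept it, 31 lost it and 5 gained it. The count of 4 subunits higher in the knockout at 1 h was 0 with median scaling over all probes, 2 with every kept probe fitted on its own, 2 with only the compared arrays, and 1 to 4 with 1 array left out, and reached 5, with Jun, in 4 settings. The count of 4 called in the knockout at 3 h was 2 to 5 with 1 array left out. The count of 2 called differences of the 3 h responses was 1 without background correction and 3 with a variance trend, array weights or median scaling over all probes. Median scaling over all probes moved the median of all genes by −0.24 in wild type at 1 h and by −0.22 between genotypes at 1 h, and the cause of the other shifts was not tested. The share of called genes that were higher was, in wild type at 1 h and 3 h, 55.6% and 48.8% as reported, 8.11% and 5.39% with that scaling and 76.6% and 70.8% with scaling to the tested genes. In knockout cells these shares were 47.3% and 44.9%, 9.1% and 26.5%, and 66.1% and 55.9%. Between the genotypes at 0 h, 1 h and 3 h they were 52%, 49.6% and 49.1% as reported, 2%, 2.36% and 54.2%, and 74.5%, 65.7% and 60.6%. Deviations of same-numbered arrays of different groups correlated above 0.1 in 10 of 45 pairs (median 0.04, 37 above 0), against 7 of 90 differently numbered pairs (median −0.03). An array correlated best with its own number in 47 of 90 comparisons with another group. Since the labels give no shared source and most pairs were under 0.1, the numbers were not taken as pairs, which leaves a weak shared deviation as a hint from the data. With the replicate number as a block, the knockout count at 3 h was 5 of 7, with Atf3 added (limma adjusted p = 0.0347), and Atf3 was also called between genotypes at 3 h (adjusted p = 0.0445). The block changed no other call of a subunit. Dim probes (Fos, Fosb, Atf3, Jund) lie close to background, which limits the size of their changes.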
